A study of Mus musculus with 3 samples.

Results

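Deup1, Ccdc78, Plk4, Stil, Sass6, Cenpj, Cep152, Cep63, Cntrob and Ccp110, the genes of the deuterosome and of centriole duplication, were followed in single cells of the mouse cortical hem and its surroundings. All 10 genes were found by Ensembl identifier among the 27040 genes measured in all 3 libraries. The tissue was the dorsal midline of the pallium, from C57BL/6J embryos. The wild type was 1 suspension that pooled 4 PGKCre;Rosa26YFP embryos at E11.5 with 4 Wnt3aCre;Rosa26tdTomato embryos at E12.5, and it was split into 2 libraries, called wild type 1 and wild type 2 here. PGKCre is active broadly and Wnt3aCre in the hem lineage, so YFP and tdTomato transcripts mark cells of one stage or the other where they are read. The knockout was 1 library of 4 E12.5 embryos lacking Gmnc, a coiled-coil regulator that switches on the programme for making many cilia; the sources used here do not say which part of Gmnc was deleted. The labels name no Cre or reporter allele for the knockout embryos.

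Dividing cells make 1 new centriole beside each existing one. Plk4 is the kinase that starts this step, Stil is its substrate and partner, Sass6 builds the cartwheel at the centre of the new centriole, and Cenpj (CPAP) lengthens its wall. Cells with many cilia need many centrioles at once and make most of them on deuterosomes, ring-like bodies built around Deup1, a relative of Cep63; Cep63 and Cep152 hold Plk4 at the parent centriole, and Deup1 binds Cep152 at the deuterosome. The choroid plexus epithelium is multiciliated, whereas hem-derived Cajal-Retzius neurons are postmitotic and carry no tuft of cilia. Ccno and Mcidas, named beside the deuterosome genes below, act downstream of Gmnc in the multiciliation programme.

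Promoter windows from RefSeq on GRCm38.p6 (250 bases before to 50 bases after each gene's start) were available for 9 of the 10 genes, Cntrob being without one. They were searched on both strands for letters associated with factors of this programme: GGCAAC, an RFX half-site, and TTCCCGC, an E2F-like element. GGCAAC was in the windows of Deup1, Ccdc78 and Ccp110 (3 of 9 genes) and in 12.51% of all 32851 windows. TTCCCGC was in those of Deup1, Plk4, Stil and Cep152 (4 of 9) and in 4.60% of all windows. Deup1 held both. Its matches are shown with those of Ccdc78, the other deuterosome gene, and of the E2F-like holders, all called lower in knockout neurons below, with the motif in capitals and each run 5′ to 3′ on the gene's strand, so a motif of the opposite strand reads as its reverse complement:
Deup1, E2F-like, chr9:15627954-15627980, minus strand: tgctggggagTTCCCGCtagaaggaag
Deup1, RFX half-site, chr9:15627910-15627935, minus strand: gcgtctccatGGCAACccactgggaa
Plk4, E2F-like on the opposite strand, chr3:40799821-40799847, plus strand: aagactttctGCGGGAAgccaaagccc
Stil, E2F-like, chr4:115000151-115000167, plus strand: gccgcctcggTTCCCGC
Cep152, E2F-like, chr2:125625271-125625297, minus strand: tccgggaagcTTCCCGCcgccactggc
Ccdc78, RFX half-site, chr17:25786555-25786580, plus strand: cagaggccttGGCAACactgacaaca
In Deup1 the E2F-like letters lay at -124 to -118 and the half-site at -79 to -74 from the RefSeq start. For Deup1 and Plk4 this start differs from that of the GENCODE gene spans printed below, and the span of Deup1 takes in its half-site. In Cep152 the E2F-like letters lay at -174 to -168, in Plk4 at -120 to -114, and in Ccdc78 the half-site lay at -15 to -10. The cell-cycle element TTTGAA was in the window of Sass6 and in 17.9% of all windows, and its form TTCGAA in that of Cep152 and in 1.56%. These matches describe letters in a window and are neither measured sites nor causes.

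The libraries held 148073906, 139978761 and 259403297 UMIs (single molecules counted by their barcode) in wild type 1, wild type 2 and the knockout. After filters and doublet removal 8527, 7479 and 12884 cells were used, with median depths of 11682, 12877 and 8715 UMIs. The wild-type libraries shared 1914 cell barcodes, 18.4% of the smaller library, against 78 and 42 shared with the knockout; in 1887 of the 1914 one library held over 10 times the UMIs of the other, and 52 passed the filters in both. Cells were clustered without the genes described here and named by markers as neural progenitor-like, intermediate progenitor-like, neuron-like or choroid plexus-like, with the suffix dropped below. Mitotic progenitors are progenitors with a G2/M call, 2052, 1831 and 3141 cells; 9.98%, 10.5% and 11.7% of progenitors lay within 0.05 of the cut on the score. Neurons numbered 865, 791 and 888, and choroid plexus cells 936, 832 and 1209. As a description of the classes, with genes that took part in naming them and so check nothing, the mitosis marker Mki67 stood at 294, 302 and 298 CPM (a gene's UMIs per 1e6 UMIs of the class) in mitotic progenitors and at 14.6, 13.4 and 15.3 CPM in neurons, the summed neuron markers at 10589, 10082 and 12161 CPM in neurons against 545, 569 and 521 CPM in mitotic progenitors, and the summed choroid plexus markers at 20132, 21936 and 47949 CPM in choroid plexus cells.

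Because each genotype is 1 suspension, no test between genotypes was possible. A gene is called lower or higher where the knockout differed at least 2-fold in the same direction from each wild-type library, with exact Poisson 95% intervals that do not overlap and at least 50 UMIs on the higher side. The intervals, printed in square brackets, cover counting error only. Ratios printed below set the wild-type libraries, summed, against the knockout. Genotype cannot be told apart from the stage mix, the suspension, the gene annotation used for counting or the Cell Ranger version. Between the wild-type libraries the intervals of all 10 genes overlapped in mitotic progenitors and in neurons, and those of 9 of 10 in choroid plexus cells. UMIs are counted at 3′ ends, and values are compared within a gene across cells, not between genes.

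In mitotic progenitors 1 of the 10 genes was called lower in the knockout, Deup1, against 1.35% of 12561 genes tested, and 0 were called higher, against 6.05%. In neurons 7 of 10 were called lower (Deup1, Plk4, Stil, Sass6, Cenpj, Cep152 and Cntrob), against 9.46% of 10629 genes, and 0 higher, against 4.78%. In choroid plexus cells 5 of 10 were called lower (Deup1, Plk4, Stil, Cenpj and Cep152), against 4.74% of 11906 genes, and 0 higher, against 6.48%. The median log2 difference of the 10 genes, knockout minus wild type with 1 CPM added, was 0.02 in mitotic progenitors, -1.82 in neurons and -0.80 in choroid plexus cells, where the medians of all genes tested were -0.00, -0.17 and -0.04. In the depth of the counts 10, 9 and 10 of the genes could have met the rule, Ccdc78 falling short in neurons. In choroid plexus cells Ccdc78 was deep enough only by its knockout UMIs, so it could be called higher there but not lower.

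**Figure D1:**
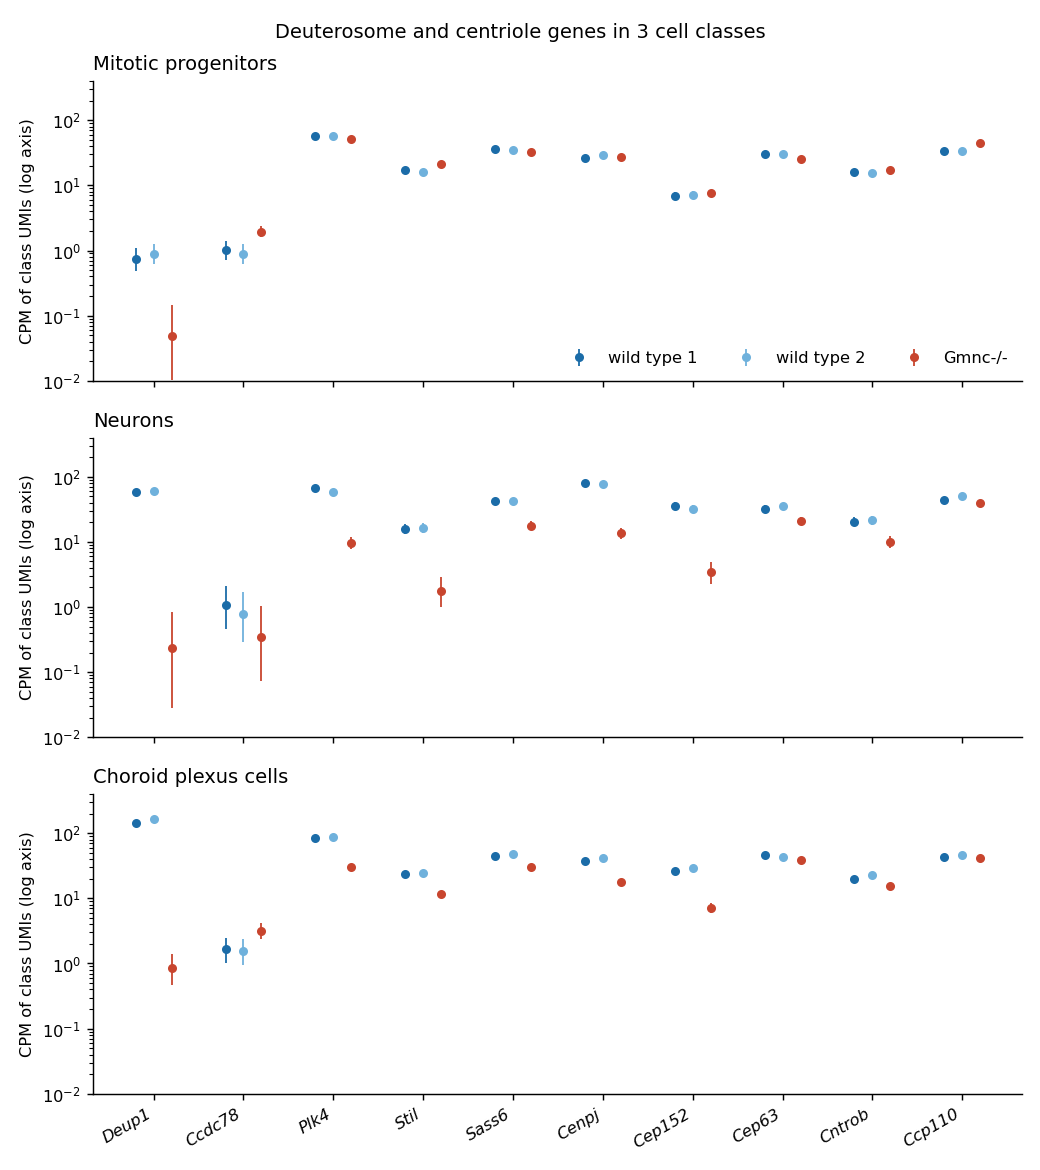
Level of each gene in each library, in CPM of the class total on a log axis, for mitotic progenitors, neurons and choroid plexus cells; points are libraries and bars exact Poisson 95% intervals. The 3 libraries lie close together for 8 of the genes in mitotic progenitors, and the knockout lies lowest for Deup1 in every class.

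Deup1 (ENSMUSG00000039977, chr9:15559864-15627933 on GRCm38, minus strand), the scaffold of the deuterosome, was nearly silent in mitotic progenitors and was read mostly in neurons and choroid plexus cells of the wild type. In mitotic progenitors it stood at 0.744 CPM [0.490 to 1.08] in wild type 1, 0.897 CPM [0.618 to 1.26] in wild type 2 and 0.0493 CPM in the knockout, from 27, 33 and 3 UMIs. In neurons it stood at 57.4 CPM [52.1 to 63.01], 60.3 CPM [54.9 to 66.0] and 0.234 CPM, from 435, 462 and 2 UMIs. In choroid plexus cells it stood at 144 CPM [138 to 151], 165 CPM [158 to 172] and 0.839 CPM [0.469 to 1.38], from 1918, 2113 and 15 UMIs. The knockout was far below both wild-type libraries in each class, and the genotypes did not overlap. The wild type exceeded the knockout 184-fold [111 to 329] in choroid plexus cells. With 2 UMIs in knockout neurons the ratio there, 251-fold, has a counting interval of 69.3 to 2078. The whole knockout library held 27 Deup1 UMIs in the cells used, 13 of them in 1 choroid plexus cluster. The call in mitotic progenitors rested on few UMIs, at a level near that of mesenchyme given below. Without either wild-type library the other had fewer than 50 UMIs and the count of called genes was 0, although both wild-type values were above the knockout.

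Within the wild type Deup1 was higher in choroid plexus cells than in progenitors of all phases by 195-fold in wild type 1 and 198-fold in wild type 2, and higher in neurons than in progenitors by 77.6-fold and 72.2-fold. It came from 2 groups of cells above all. Cluster 16 of the choroid plexus, led by Meig1, Dynlrb2 and Rsph1 together with Deup1, held 455 and 472 CPM and 69.4% and 73.9% of each library's Deup1 UMIs. Deup1 was not used to form the clusters. Cluster 12 of the neurons, led by Cdkn1a, Lhx1 and Trp73, held 87.5 and 91.8 CPM and 17.5% and 17.2% of the UMIs. In the other neuron cluster, cluster 7, led by Calb2, Cnr1 and Neurod6, Deup1 was at 1.13, 0.378 and 0.239 CPM, from 3, 1 and 2 UMIs. A Deup1 UMI was seen in 91.5% and 92.8% of cluster 16 cells and in 35.2% and 37.6% of cluster 12 cells; after thinning every cell to 4000 UMIs these shares were 75.9% and 77.0%, and 23.3% and 24.1%. In erythroid and mesenchyme cells, which should lack the gene, the shares were 0.521%, 0% and 0%, and 1.43%, 3.03% and 0%, at median depths of 15693.5, 17504 and 15788.5 UMIs and of 12038.5, 14259.5 and 9736 UMIs. Wild-type mitotic progenitors, at 1.12% and 1.42% and median depths of 15509.5 and 17055 UMIs, did not exceed mesenchyme, where Deup1 stood at 1.03 and 1.85 CPM from 1 and 2 UMIs. Erythroid cells had lower shares, 0.521% and 0%, so these 2 classes do not set one background level. With so few UMIs, Deup1 in mitotic progenitors is not read as expression in those cells.

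Both clusters were nearly missing from the knockout, so its classes were made of other cells. Cluster 12 had 616 and 556 wild-type cells and 27 knockout cells, while cluster 7 had 249 and 235 wild-type cells and 861 knockout cells. Cluster 16 had 305 and 291 wild-type cells and 2 knockout cells, whereas cluster 6, led by Pmch, Htr2c and the transthyretin gene Ttr, had 318, 267 and 974 and cluster 15, with Msx1 and Clic6 among its leading genes, had 313, 274 and 233. In cluster 6, which both genotypes filled, Deup1 still stood at 37.9 and 26.2 CPM in the wild-type libraries and 0.876 CPM in the knockout, 36.9-fold [21.2 to 70.2]. In cluster 15 it stood at 7.31, 4.93 and 0.661 CPM. In intermediate progenitors it stood at 5.09, 5.01 and 0.379 CPM, from 34, 34 and 3 UMIs. Deup1 was called lower in cluster 6, in cluster 15, in hem progenitors (1.497, 1.91 and 0.196 CPM) and in intermediate progenitors. In hem progenitors it was 1 of 10 genes, against 1.41% of genes, and in intermediate progenitors 1 of 10, against 2.37%. The wild-type level in hem progenitors lies near that of mesenchyme given above and is not read as expression in those cells.

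The deleted gene, Gmnc, and its downstream genes Ccno and Mcidas were read in the same classes. Gmnc 3′ UMIs remained in the knockout: 3.36, 8.13 and 8.15 CPM in mitotic progenitors, 137, 123 and 33.0 CPM in neurons and 75.4, 82.2 and 226 CPM in choroid plexus cells. A 3′ count outside the deleted part checks nothing about the deletion. Ccno, at 426 and 422 CPM in wild-type neurons and 136 and 150 CPM in choroid plexus cells, was at 0 and 0.280 CPM in the knockout. Mcidas, at 152 and 155 CPM in wild-type neurons and 56.9 and 67.7 CPM in choroid plexus cells, had no UMI in either knockout class.

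Ccdc78, described as a deuterosome component that recruits centriole assembly factors, did not follow Deup1. It was at 1.02, 0.897 and 1.95 CPM in mitotic progenitors (37, 33 and 119 UMIs), at 1.05, 0.783 and 0.351 CPM in neurons (8, 6 and 3 UMIs) and at 1.65, 1.56 and 3.19 CPM in choroid plexus cells (22, 20 and 57 UMIs). In mitotic progenitors and choroid plexus cells the knockout was the highest, with a ratio to the wild type of 2.04 [1.51 to 2.78] in mitotic progenitors, but it did not reach 2-fold against each wild-type library. In the wild-type cluster 16, where Deup1 was at its highest, Ccdc78 stood at 2.39 and 2.37 CPM. Its 3′ end overlaps Fam173a on the other strand in the GRCm38 annotation, and whether strand was used in the counting is not stated, so its UMIs may include reads of that gene.

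Plk4 (ENSMUSG00000025758, chr3:40800019-40816883, plus strand), the kinase that starts centriole duplication, followed the cell cycle in progenitors. Its level was 7.33, 7.72 and 8.71 CPM in progenitors with a G1 call, 47.8, 51.1 and 44.3 CPM in those with an S call, and 56.7, 58.2 and 52.1 CPM in mitotic progenitors. G2/M over G1 was 7.74-fold and 7.54-fold in the wild-type libraries, and 5.98-fold in the knockout. In wild-type progenitors 6 of the 10 genes were higher in G2/M than in G1 by at least 2-fold in both libraries, against 3.53% of all genes tested: Plk4, Stil, Sass6, Cenpj, Cep152 and Cntrob. Stil, the Plk4 partner, rose 12.4-fold and 7.78-fold. Cep152 rose 4.09-fold and 3.42-fold, Cntrob 2.25-fold and 3.02-fold, Sass6 2.21-fold and 2.45-fold, and Cenpj 2.56-fold and 2.20-fold. In the knockout the same ratios were 5.97 for Stil, 2.05 for Cep152, 2.39 for Cntrob, 2.26 for Sass6 and 2.73 for Cenpj, and these knockout ratios were not tested against the wild type. Between S and G1, 4 of the 10 were higher in both wild-type libraries (Plk4, Stil, Sass6 and Cep152), against 3.69% of genes. Deup1, with few UMIs, had G2/M over G1 ratios of 1.06 and 0.930.

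**Figure D2:**
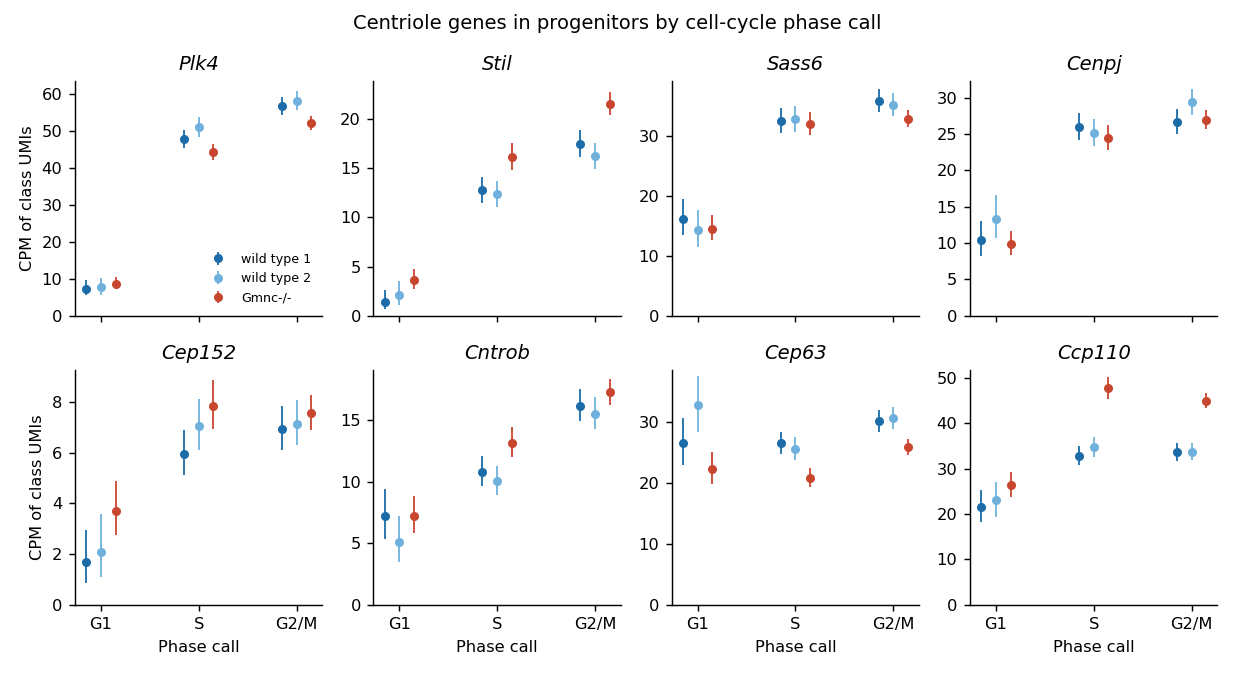
Level of 8 genes in progenitors with a G1, S or G2/M call, in CPM of the class total; points are libraries and bars exact Poisson 95% intervals. Plk4, Stil, Sass6, Cenpj, Cep152 and Cntrob are lowest in G1 in all 3 libraries, while Cep63 and Ccp110 change less with phase.

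The procentriole genes in mitotic progenitors differed little between genotypes. Stil was at 17.5 CPM [16.1 to 18.9], 16.3 CPM [14.98 to 17.6] and 21.6 CPM [20.4 to 22.8], the knockout being the highest and its interval clear of both. Sass6 stood at 35.8, 35.1 and 32.9 CPM, and Cenpj at 26.7, 29.3 and 27.0 CPM, with intervals of the wild type and knockout overlapping for Cenpj. The log2 differences of Plk4, Stil, Sass6 and Cenpj were -0.14, 0.34, -0.11 and -0.05, all far inside the 2-fold rule.

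In neurons the same genes stood at levels in the wild type similar to those of mitotic progenitors, or above them, and were far lower in the knockout. This class is named by markers, and 6.81% and 7.14% of its scored wild-type cells had a G2/M call. Whether all its cells had left the cycle was not tested. Plk4 was at 67.5 CPM [61.8 to 73.6], 58.7 CPM [53.4 to 64.4] and 9.60 CPM [7.64 to 11.9], 6.57-fold [5.24 to 8.34]. Stil was at 15.8, 16.6 and 1.76 CPM, 9.22-fold [5.48 to 16.7], from 120, 127 and 15 UMIs. Cenpj was at 79.6, 76.3 and 13.5 CPM, 5.79-fold [4.78 to 7.08]. The genotypes did not overlap for any of these genes. Sass6 showed a smaller difference, at 41.8, 41.7 and 17.7 CPM, 2.36-fold [1.98 to 2.84]. The ratio to progenitors within the wild type was 3.21 and 2.90 for Cenpj. In all, 3 of the 10 genes, Deup1, Cenpj and Cep152, were higher in wild-type neurons than in wild-type progenitors by the same rule, against 14.3% of genes.

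Within the neurons the wild-type difference lay between clusters. Cluster 12 held 96.2 and 84.1 CPM of Plk4, 23.3 and 24.5 of Stil, 53.4 and 52.8 of Sass6 and 113 and 111 of Cenpj. Cluster 7 held 14.0, 10.6 and 9.55 CPM of Plk4, 1.89, 1.51 and 1.55 of Stil, 20.04, 20.8 and 17.7 of Sass6 and 17.8, 10.96 and 13.5 of Cenpj in wild type 1, wild type 2 and the knockout. By the rule 7 of 10 genes were higher in cluster 12 than in cluster 7 of the wild type, against 9.56% of genes: Deup1, Plk4, Stil, Sass6, Cenpj, Cep152 and Cntrob. Within cluster 7, which both genotypes filled, 0 of the 10 genes were called lower, against 1.82% of genes. There 6 of the 10 were deep enough to be called in at least 1 direction, and Deup1, Ccdc78, Stil and Cep152 were too shallow. Cntrob, at 8.32 and 9.07 CPM in the wild type, was deep enough only by its knockout UMIs and could not be called lower. For Cntrob and the shallow genes the count shows nothing. Cell-cycle genes differed between these clusters as well: 15 of the 51 G2 and M phase genes were higher in cluster 12 (among them Cdk1, Aurka and Cdc20) and 0 lower. Their summed level was 3482 and 3250 CPM in cluster 12 against 1889 and 1983 CPM in cluster 7, and 9.42% and 9.39% of cells had a G2/M call against 0.405% and 1.76%. Mki67 stood at 18.8 and 12.7 CPM against 6.81 and 14.7 CPM. The part of these in the difference was not tested.

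Other values moved with the neuron result. The summed G2 and M phase genes stood at 2927, 2813 and 2070 CPM in neurons, with 14 of 51 of them called lower, against 9.46% of all genes. Cells with a G2/M call made up 6.81%, 7.14% and 1.16%. The summed intermediate progenitor markers stood at 2209, 2246 and 1630 CPM. The knockout cells also carried more haemoglobin and other erythroid UMIs, 5980 CPM against 350 and 477 (in mitotic progenitors 1600 against 244 and 203 CPM), and their median depth was 7773.5 UMIs against 8234 and 9392. The part of these in the result was not tested. In clusters drawn at other settings the neuron-like class held other cells: with at least 2000 genes per cell, the cells of the cluster 12 kind took the intermediate progenitor name and 0 of the 10 genes were called lower in neurons. With Leiden resolution 2 the count was 2 (Deup1 and Cep152). When neurons and intermediate progenitors were pooled, so that the name no longer mattered, it was 5, 5 and 4 at the main settings, with 2000 genes per cell and at resolution 2, and Deup1, Plk4, Cenpj and Cep152 were among them each time. The share of all genes called lower is not given for the pool or for these other settings.

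**Figure D3:**
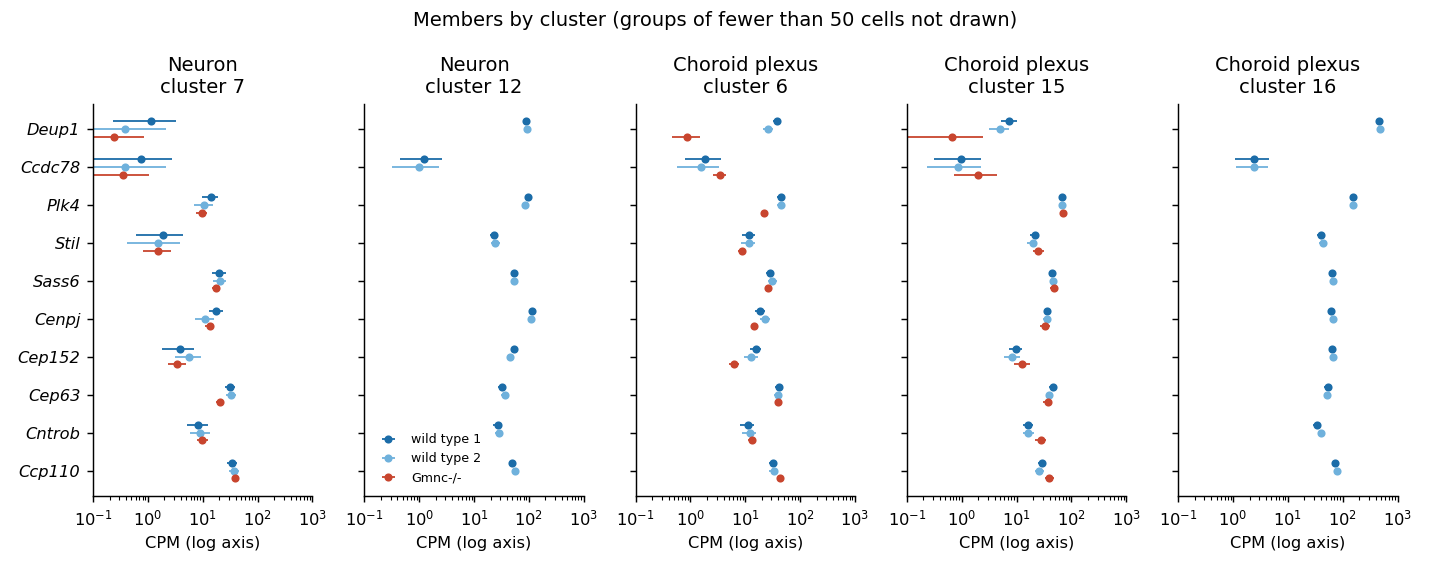
Level of each gene in neuron clusters 7 and 12 and choroid plexus clusters 6, 15 and 16, in CPM of the cluster on a log axis; points are libraries with at least 50 cells there and bars exact Poisson 95% intervals. Clusters 12 and 16 show the wild type alone, at 87.5 and 455 CPM of Deup1 in wild type 1, and the libraries lie close together in cluster 7.

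In choroid plexus cells the kinase and its partners were lower in the knockout too. Plk4 was at 83.7 CPM [78.9 to 88.8], 87.9 CPM [82.8 to 93.1] and 30.3 CPM [27.8 to 33.0], 2.83-fold [2.58 to 3.11]. Stil was at 23.3, 24.7 and 11.46 CPM, 2.09-fold [1.78 to 2.46], and Cenpj at 37.5, 41.4 and 17.7 CPM, 2.22-fold [1.96 to 2.53]. For these 3 genes both wild-type libraries lay above the knockout, but the Stil and Cenpj calls were near the threshold. The Stil call was lost without doublet removal, with 2000 genes per cell, at resolution 0.5, after thinning, with TMM scaling, in E12.5 reporter cells and in clusters of both genotypes. The Cenpj call was lost at resolution 0.5, in E12.5 reporter cells and in clusters of both genotypes. Sass6, at 44.3, 48.4 and 30.2 CPM, differed 1.53-fold [1.38 to 1.70] and was not called. In the wild-type cluster 16 the levels were 153 and 152 CPM of Plk4, 39.5 and 43.0 of Stil, 63.4 and 66.2 of Sass6 and 61.0 and 65.3 of Cenpj. Against mitotic progenitors of the same library, 7 of 10 genes were higher in cluster 16 (Deup1, Plk4, Stil, Cenpj, Cep152, Cntrob and Ccp110), against 15.5% of genes, Plk4 by 2.70-fold and 2.62-fold. Mki67 stood at 52.8 and 61.0 CPM there, and 67.7% and 70.7% of its cells had a G2/M call.

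With cluster 16 left out, the count of called genes in the choroid plexus class fell to Deup1 alone, while cluster 6 by itself kept Cep152 too. In cluster 6, where 2 of 10 genes (Deup1 and Cep152) were called lower, against 2.31% of genes, Plk4 stood at 44.1, 44.5 and 22.2 CPM, just short of 2-fold against each wild-type library. In cluster 15, where 1 of 10 was called lower, against 1.51%, Plk4 stood at 66.5, 66.2 and 70.4 CPM and Stil at 21.3, 19.5 and 24.8 CPM. When clusters with under 20 cells of either genotype were left out of the class, 1 of 10 genes was called lower, Deup1. The class then mixed cluster 6 (318, 267 and 974 cells) and cluster 15 (313, 274 and 233 cells) unequally between genotypes. The summed G2 and M phase genes were lower in knockout choroid plexus cells, 7556 CPM against 10966 and 11642, with 11 of 51 called lower, against 4.74% of all genes. Choroid plexus cells of the knockout also had fewer cells with a G2/M call, 36.0% against 62.0% and 65.5%, while Mki67 was 195 CPM against 203 and 203. Their summed choroid plexus markers were higher, 47949 against 20132 and 21936 CPM, with 1 of the 12 markers at 0 in wild type 2 and none in the others. The summed erythroid markers were 6048 CPM in the knockout against 261 and 235 CPM, and the summed neural progenitor markers 1390 against 1892 and 1830 CPM. The part of these in the result was not tested.

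**Figure D4:**
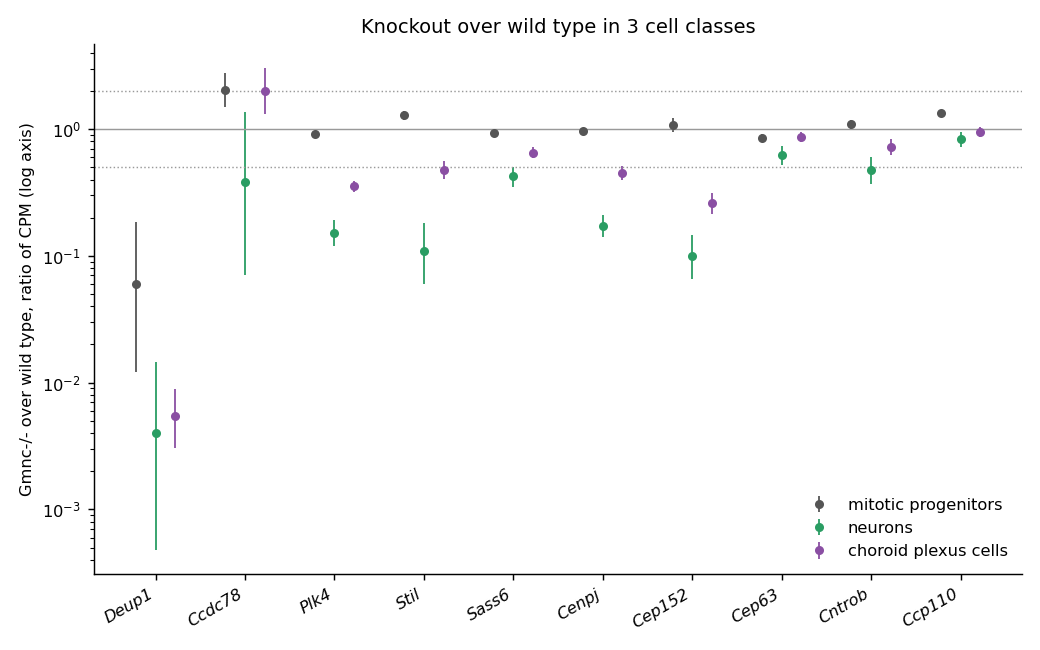
Knockout over wild type as a ratio of CPM on a log axis, with the wild-type libraries summed, for mitotic progenitors, neurons and choroid plexus cells; bars are 95% intervals and dotted lines mark 2-fold. Deup1 is below 0.1 in every class, and Plk4, Stil, Cenpj and Cep152 are below the lower dotted line in neurons and choroid plexus cells but near 1 in mitotic progenitors.

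Cep152 and Cep63 form the cradle for Plk4 on the parent centriole, and Cntrob (centrobin) sits on the new centriole. In neurons Cep152 (ENSMUSG00000068394, chr2:125563088-125625113, minus strand) stood at 35.9 CPM [31.7 to 40.4], 32.2 CPM [28.3 to 36.5] and 3.40 CPM [2.27 to 4.88], with a wild-type to knockout ratio whose interval ran from 6.90 to 15.1. In choroid plexus cells it stood at 26.6, 29.0 and 7.21 CPM, 3.86-fold [3.19 to 4.69], and in cluster 6 at 15.4, 13.0 and 6.13 CPM, 2.32-fold [1.75 to 3.09]. The knockout was the lowest in each. In mitotic progenitors it stood at 6.92, 7.15 and 7.56 CPM, and the intervals of the 3 libraries overlapped. Within the wild type Cep152 was higher in choroid plexus cells than in progenitors by 4.42-fold and 4.34-fold, and with Deup1 it made up the 2 of 10 genes that were, against 14.4% of genes. Cluster 12 held 53.0 and 46.2 CPM and cluster 16 held 63.1 and 66.9 CPM, against 3.78, 5.67 and 3.46 CPM in cluster 7 and 9.61, 8.36 and 12.6 CPM in cluster 15.

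Cep63, the paralog of Deup1, moved little. It stood at 30.2, 30.6 and 25.9 CPM in mitotic progenitors, at 32.2, 35.1 and 20.8 CPM in neurons, 1.61-fold [1.36 to 1.93], and at 46.1, 43.7 and 38.9 CPM in choroid plexus cells. It missed the rule in all 3 classes. Cntrob stood at 16.2, 15.6 and 17.3 CPM in mitotic progenitors, at 20.4, 21.5 and 9.95 CPM in neurons, 2.11-fold [1.66 to 2.71], and at 19.6, 23.0 and 15.5 CPM in choroid plexus cells. Its call in neurons was near the threshold: it was lost without doublet removal, at resolution 0.5, with either other scaling and without the shared barcodes.

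Ccp110 caps the end of the centriole and keeps it from becoming the base of a cilium. It stood at 33.6, 33.6 and 45.0 CPM in mitotic progenitors, at 44.0, 50.1 and 39.1 CPM in neurons and at 42.5, 45.8 and 41.7 CPM in choroid plexus cells. The log2 difference was 0.41, -0.26 and -0.08, and no class was called. In the wild-type cluster 16 it stood at 72.1 and 79.7 CPM, above mitotic progenitors by 2.15-fold and 2.37-fold.

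The genes were traced along a maturation score from hem progenitors through intermediate progenitors to neurons, in 10 bins set by wild-type cells. The score is the mean log count of the neuron markers minus that of the neural progenitor markers. In the wild type Deup1 was low up to bin 5, at 22.1 and 19.3 CPM in bin 6, at 70.6 and 60.6 CPM in bin 7, and at 7.25 and 8.37 CPM in bin 10, the most mature. In the knockout it stayed under 1 CPM in every bin. Cenpj stood at 92.9 and 94.9 CPM in bin 7 against 33.2 CPM, Plk4 at 81.3 and 73.5 CPM against 24.3 CPM, and Cep152 at 33.9 and 32.6 CPM in bin 8 against 4.70 CPM. In bins 1 to 5 the 3 libraries lay closer together for Cenpj, between 25.8 and 36.6 CPM. Neuron-class cells made up 42.6% and 40.9% of bin 7 in the wild-type libraries, and 2.14% in the knockout, so the bins differ in their cells between genotypes.

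**Figure D5:**
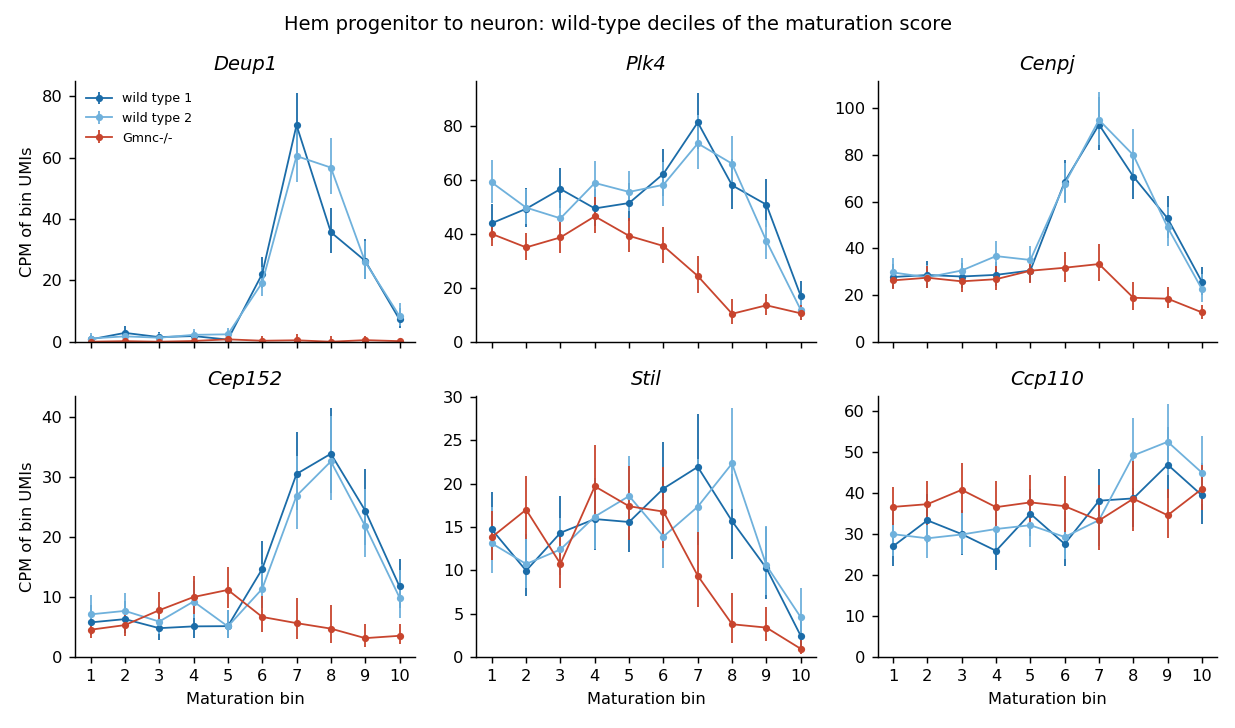
Level of 6 genes in 10 bins of the maturation score, in CPM of the bin, for hem progenitors, intermediate progenitors and neurons; points are libraries and bars exact Poisson 95% intervals. In the wild type Deup1, Cenpj and Cep152 are highest in bins 7 and 8, Deup1 at 70.6 and 60.6 CPM in bin 7, and the knockout lies below both libraries there.

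The stage of the wild type could be read in cells that carried 1 of the reporters. The E12.5 cells carried tdTomato, marked by Wnt3aCre in the hem lineage, and the E11.5 cells carried YFP, marked broadly by PGKCre. In these values stage therefore cannot be told apart from lineage and reporter line. The knockout cells set beside them were not limited to the hem lineage. Deup1 in cluster 12 was at 93.4 and 102 CPM in E11.5 cells and at 68.0 and 108 CPM in E12.5 cells, and in cluster 16 at 468 and 486 CPM and at 329 and 360 CPM, the latter from 24 and 34 cells. In neurons E12.5 cells held 52.8 and 82.3 CPM of Deup1, far above the 0.234 CPM of the E12.5 knockout. Plk4 in E12.5 neurons was at 70.7 and 79.2 CPM, and Cenpj at 98.0 and 87.6 CPM, against 69.5 and 60.4 CPM and 82.2 and 79.8 CPM in E11.5 neurons. Sass6 in neurons was at 30.2 and 29.5 CPM in E12.5 cells against 45.8 and 48.1 CPM in E11.5 cells. With the wild type limited to E12.5 cells, 5 genes were still called lower in neurons and 3 in choroid plexus cells. The shares over all genes were 9.46% and 4.74% at the main settings and are not given for this one. The lost calls were Sass6 and Stil in neurons, and Stil and Cenpj in choroid plexus cells. Sass6 in E12.5 neurons was under 2-fold above the 17.7 CPM of the knockout. Stil in E12.5 neurons stood at 18.8 and 27.4 CPM, against 16.4 and 17.7 CPM in E11.5 neurons and 1.76 CPM in the knockout. Its 20 and 26 UMIs in E12.5 neurons together fell short of the rule's minimum count, so this lost call does not show a smaller difference.

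The other genes of centriole duplication and elongation, a list of 31, are read here against the shares of all genes called lower, 1.35% in mitotic progenitors, 9.46% in neurons and 4.74% in choroid plexus cells. In mitotic progenitors 0 of the 31 were called lower or higher. In neurons 12 were called lower and 0 higher, with a median log2 difference of -0.69: Wrap73 stood at 138, 140 and 28.2 CPM, Tedc1 at 13.5, 11.2 and 2.58 CPM, and Cep44 at 28.9, 33.7 and 10.8 CPM. In choroid plexus cells 4 were called lower and 0 higher, among them Ppp1r35, at 127, 130 and 35.7 CPM. Of 16 pericentriolar and satellite genes 0, 2 and 1 were called lower in the 3 classes, the neuron calls being Pcnt (47.1, 47.1 and 12.9 CPM) and Nedd1. For these satellite genes, as for the next list, the counts are near the shares over all genes. Of 17 appendage and basal body genes 0, 1 and 1 were called lower, in both classes Cntrl, which was at 79.4, 79.4 and 10.8 CPM in neurons. Of 16 multiciliation regulators 4, 9 and 7 were called lower and 1, 1 and 2 higher. The higher call in mitotic progenitors was Tfdp1, at 4.19, 4.19 and 56.6 CPM, and it was called higher in neurons and choroid plexus cells too. The feature sets used for counting differ between genotypes, and their part in this was not tested.

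Over 20 wild-type clusters of at least 50 cells, the genes with the pattern most like Deup1 by Pearson correlation of log2 CPM were Dbpht2 (0.967), Efhb (0.961), Cdc20b (0.956), Tcp11 (0.952) and Shisa8 (0.9505). Those most like Plk4 were Stil (0.973), Tbc1d31 (0.920), Sass6 (0.907), Ube2t (0.895) and Eri2 (0.886). Among the 10 genes, Deup1 and Cep152 had a correlation of 0.89. The clusters share their libraries, so these are descriptions.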

How the data were processed

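Libraries were made with 10x Genomics 3′ v3 chemistry, per the labels' protocols, from about 20000 loaded cells each, with 10000 targeted. The authors deposited UMI counts per gene and barcode, aligned to mm10 with Cell Ranger 3.1.0 per the submitters' processing notes; per the file headers the knockout was run with 6.0.0 and the other libraries with 3.1.0. No source used here gives the annotation release. The wild-type files held 28001 features, 3 of them transgenes, and the knockout files 32285; the 27040 Ensembl identifiers in both were kept (99.8%, 99.8% and 99.2% of UMIs). Deup1 carries an older symbol, Ccdc67, in the wild-type files. Positions came from GENCODE vM21 on GRCm38.

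Of 12426, 10399 and 20256 barcodes, those kept had 10% or less mitochondrial UMIs, 2000 or more UMIs and 1000 or more genes (9468, 8158 and 15375). Doublets scored against simulated doublets were removed (9.94%, 8.32% and 16.2%). The 2000 most variable genes, without the genes of the lists used here, were scaled within genotype and clipped at 10; 40 components, 20 neighbours and Leiden resolution 1 followed. Phases and the maturation score came from cells thinned to 4000 UMIs, which left out 2.03%, 2.86% and 9.47% of cells. UMIs were summed per class and library.

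No p-value was computed: there is 1 suspension per genotype, and the wild-type libraries are technical repeats, counted as 1 sample. Named were all members, Gmnc, Ccno and Mcidas, up to 6 called genes of each other list with the largest log2 difference (fewer are printed), and the 5 genes most like Deup1 and Plk4. Members and lists were chosen with earlier results of these data known. The scripts were tested on simulated data. Alternatives were other cell filters, resolutions, scalings, count minimums, thinning, stage by reporter, leaving out each wild-type library, and, chosen after seeing the data, leaving out shared barcodes, using clusters of both genotypes and pooling neurons with intermediate progenitors. Tools were Python 3.11.15, numpy 2.4.6, scipy 1.17.1, pandas 2.3.3, igraph 0.11.9, leidenalg 0.10.2, R 4.3.3 and edgeR 4.0.16 (TMM factors only).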

Additional observations from a re-analysis of the deposited data

Results flagged for a closer look

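Stil differed in direction between cell classes: its log2 difference, knockout minus wild type, was 0.34 in mitotic progenitors, where the knockout was above both wild-type libraries, and -2.64 in neurons and -1.004 in choroid plexus cells, where it was below both. The classes differ in their cells: clusters 12 and 16 had 27 and 2 knockout cells. In the wild type these held 23.3 and 24.5 CPM and 39.5 and 43.0 CPM of Stil. Stil was not called lower in clusters 6 and 15, which both genotypes filled, and in cluster 7 it was too shallow to be called. Its call in choroid plexus cells was near the threshold. The difference between the classes was not tested.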

How the results depend on the processing

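The count of genes lower in mitotic progenitors, 1 in the report, was 0 after thinning to 4000 UMIs, with at least 20 CPM required, in E12.5 reporter cells, without the shared barcodes and with a G2/M score in the top 10%, and 0 to 0 without either wild-type library. The count higher there, 0 in the report, was 1 (Ccdc78) with at least 2000 genes per cell and without the shared barcodes, and 0 to 1 without a wild-type library. In neurons the count lower, 7, was 0 with 2000 genes per cell, 2 at resolution 2 and 4 when pooled with intermediate progenitors at resolution 2. In the other alternatives run it was 5 to 7. In choroid plexus cells the count lower, 5, was 3 at resolution 0.5, 3 in E12.5 reporter cells and 1 in clusters of both genotypes. It was 4, without Stil, with no doublet removal, 2000 genes per cell, thinning or TMM, and 5 in the rest. The count higher there, 0, was 1 (Ccdc78) with 2000 genes per cell and in clusters of both genotypes, and 0 to 1 without a wild-type library. The count higher in G2/M than in G1, 6, was 3 with at least 20 CPM, and the count higher in neurons than in progenitors, 3, was 0 with 2000 genes per cell and 1 at resolution 2. The log2 difference of Cntrob in neurons changed sign, to 0.0042, with 2000 genes per cell. Values that met no call changed sign too: in clusters of both genotypes Cntrob and Ccp110 in choroid plexus cells were at 0.13 and 0.46 (-0.44 and -0.08 in the report), and Ccp110 in neurons was at 0.06 in E12.5 cells (-0.26). In mitotic progenitors Plk4, Cenpj, Cep152 and Cntrob changed sign under some alternatives, within -0.21 to 0.23. At 2000 genes per cell the cells of the cluster 12 kind were named otherwise. At resolution 2 Deup1 and Cep152 were still called lower in neurons, and the share of cluster 12 cells that kept the neuron name is not given here. For the change at resolution 2 and for the other changes the cause was not tested. For single genes, 107 of 160 alternatives in neurons, 115 of 140 in mitotic progenitors and 107 of 130 in choroid plexus cells stayed within the interval of the main value. Median-ratio and TMM scaling moved the median of all genes in neurons by 0.14 and 0.12 (log2), and the share of higher among all calls from 33.6% to 45.6% and 42.9%. No paired analysis was possible because the wild-type libraries are technical repeats of 1 suspension and the knockout came from other embryos. Depth limits Deup1 and Ccdc78 in progenitors, at 3 to 119 UMIs. The shares of all genes called under the alternatives are not given here, so the counts above have no share beside them.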

Other observations

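The 31 other centriole duplication and elongation genes were also compared within the wild type, by the rule of 2-fold in both libraries. In G2/M against G1 progenitors 12 of them were higher, against 3.53% of all genes, and 0 lower; the higher genes include Poc1a, Tedc1 and Wdr62. In cluster 16 of the choroid plexus against mitotic progenitors 12 were higher, against 15.5% of all genes, among them Cep135, Cetn2 and Mdm1, and 1 was lower, Ccnf. In cluster 12 against cluster 7 of the neurons 13 were higher, among them Cep135, Cep192 and Wrap73, against 9.56% of all genes, and 0 lower. These examples were chosen after their calls were seen. Ccdc78 in the clusters that took no name stood at 0.973 and 1.30 CPM in the wild-type libraries and at 4.46 CPM in the knockout. These clusters differed in their cells between genotypes: cluster 18 had 0, 0 and 382 cells and cluster 9 had 127, 142 and 1023. The part of this in the difference was not tested, and the overlap with Fam173a applies here too.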
